A study of Mus musculus with 78 samples.

Results

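The comparison described here followed mouse liver gene expression after dichloroacetic acid (DCA) was withdrawn following 32 weeks of exposure. Its members were chosen by their labels and by the deposited normalized table: the S2-32, S2-78, Control-32 and Control-78 libraries, if they were also columns of that table. Of 24 libraries with these labels 22 were kept, out of 78 libraries in the series, and the S2-78 libraries of mice 46 and 48 were left out. The quantity tested for each gene was a difference of differences, S2-78 minus S2-32 less Control-78 minus Control-32, called the withdrawal difference below. A positive withdrawal difference means that the level in S2 mice relative to same-age controls was higher at 78 weeks than at 32 weeks.

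Male B6C3F1 mice received DCA in drinking water from 4 weeks of age, and the question was what remained in the liver after exposure ended. S2-32 mice drank 3.5 g/L DCA for 32 weeks and were sampled then, at 36 weeks of age (6 mice). S2-78 mice drank the same DCA for 32 weeks and then water for 46 weeks, and were sampled at 82 weeks of age (4 of 6 mice kept). Control-32 and Control-78 mice drank water without DCA and were sampled at the same ages, 36 and 82 weeks (6 mice each). RNA was read by TempO-Seq, which counts ligated probe pairs for a panel of genes chosen to represent the transcriptome, from lysates of archived formalin-fixed liver sections, with 2 to 3 sections from each block, so each value is 1 mouse at 1 age and no mouse was followed over time. The labels do not say whether a section held a tumour or other lesion.

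Total counts ranged from 1484484 to 3049702 in S2-32 (median 2426391), from 1187668 to 2475996 in S2-78 (median 1390515), from 721372 to 2731045 in Control-32 (median 1987260) and from 2098777 to 4285848 in Control-78 (median 3505220). One library came from 1 mouse, so every p below measures the spread between mice. Levels are given as counts per 1000000 (CPM) after scaling by trimmed mean of M-values (TMM). Liver was the labelled tissue, and 11 of 19 listed hepatocyte markers were tested. TTR, the thyroid hormone carrier made by hepatocytes and the most abundant of them, lay between 8858 and 63130 CPM in all 22 libraries, and no marker on the panel was at 0 in every library. Albumin was not on the panel.

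DCA is a pyruvate analogue that inhibits the pyruvate dehydrogenase kinases, so that pyruvate dehydrogenase stays active and more pyruvate enters the tricarboxylic acid cycle. In rodent liver it is known for glycogen accumulation and for liver tumours after long exposure, and it is broken down by the glutathione transferase GSTZ1. None of the genes for the pyruvate dehydrogenase kinases was on the panel.

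Some libraries stood apart from the rest before any comparison. Spearman's rho with the median profile was 0.782 for mouse 47 of S2-78 and 0.749 for mouse 75 of Control-32, and 0.868 to 0.976 for the other 20 libraries. Mouse 47 also held markers of exocrine pancreas: their summed level was 14728 CPM, against 251, 371 and 173 CPM in S2-78 mice 43, 44 and 45 and at most 661 CPM in the other 3 groups. In mice 43, 44 and 45 most of this sum came from a single gene of the list, AMY1. The major urinary proteins, a family of secreted pheromone carriers made in male liver, took 5.13% to 48.1% of the counts, with the highest shares in Control-32 mice 75 (47.0%), 76 (46.1%) and 78 (48.1%). Their probes target near-identical genes, so single members of the family are uncertain. Every count below is therefore also given without mouse 47 or without mice 47 and 75 where that moved it by more than 1.5 times, an alternative chosen after seeing the data.

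**Figure D1:**
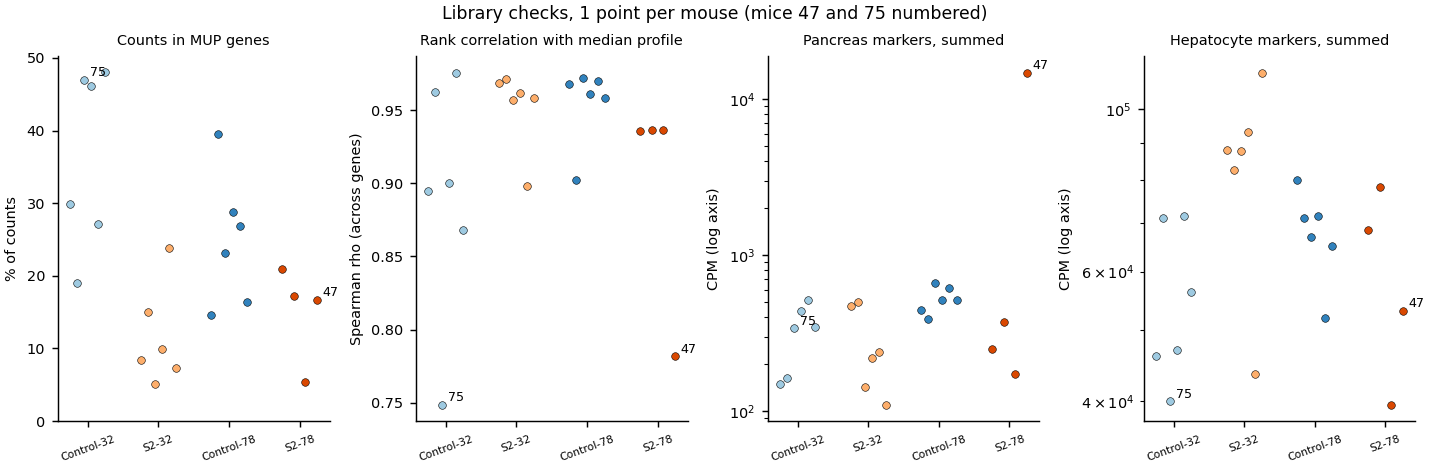
Checks of the 22 libraries, 1 point per mouse in each of the 4 groups: Spearman's rho with the median profile, the percent of counts in the major urinary proteins, and the summed CPM of pancreas markers on a log scale. Mice 47 and 75 have the lowest rho, 0.782 and 0.749, and mouse 47 alone has a pancreas sum of 14728 CPM.

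Withdrawal after 32 weeks was followed by a change relative to controls in few single genes. The withdrawal difference passed an adjusted p of 0.05 in 11 of 2205 genes tested (0.499%), with 7 positive (0.317%) and 4 negative (0.181%), by edgeR's quasi-likelihood test with Benjamini-Hochberg adjustment. The negative genes were DNAJB1, INSIG1, CDCA4 and YTHDF1, and the positive genes were TNIP1, A130071D04RIK, NAP1L3, CRIM1, AXIN1, BIRC3 and CELA3B. At an unadjusted p under 0.05 there were 405 genes (18.4%), and the median over all genes was 0.01. DESeq2 called 126 genes, 106 positive and 20 negative, or 140 with its independent filtering. Scaling moved the count and its direction: with relative log expression (RLE) factors 51 genes were called, 88.2% of them positive, with upper-quartile factors 74, 87.8% positive, and the median over all genes shifted to 0.32 and 0.40.

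The count also depended on single mice. Without S2-78 mouse 47, or without Control-78 mouse 90, no gene was called, and 208 and 329 genes respectively had an unadjusted p under 0.05. Without mice 47 and 75 together no gene was called either, with 144 at that p. Leaving out 1 mouse gave fewer calls for S2-32 mouse 37 (3), Control-32 mouse 75 (2) and Control-78 mouse 89 (7). It gave more for S2-32 mouse 41 (79), S2-78 mice 43 (42), 44 (56) and 45 (49), Control-32 mice 73 (34), 74 (81) and 77 (56), and Control-78 mouse 86 (132). The other 9 libraries left out in turn gave 8 to 16 calls.

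**Figure D2:**
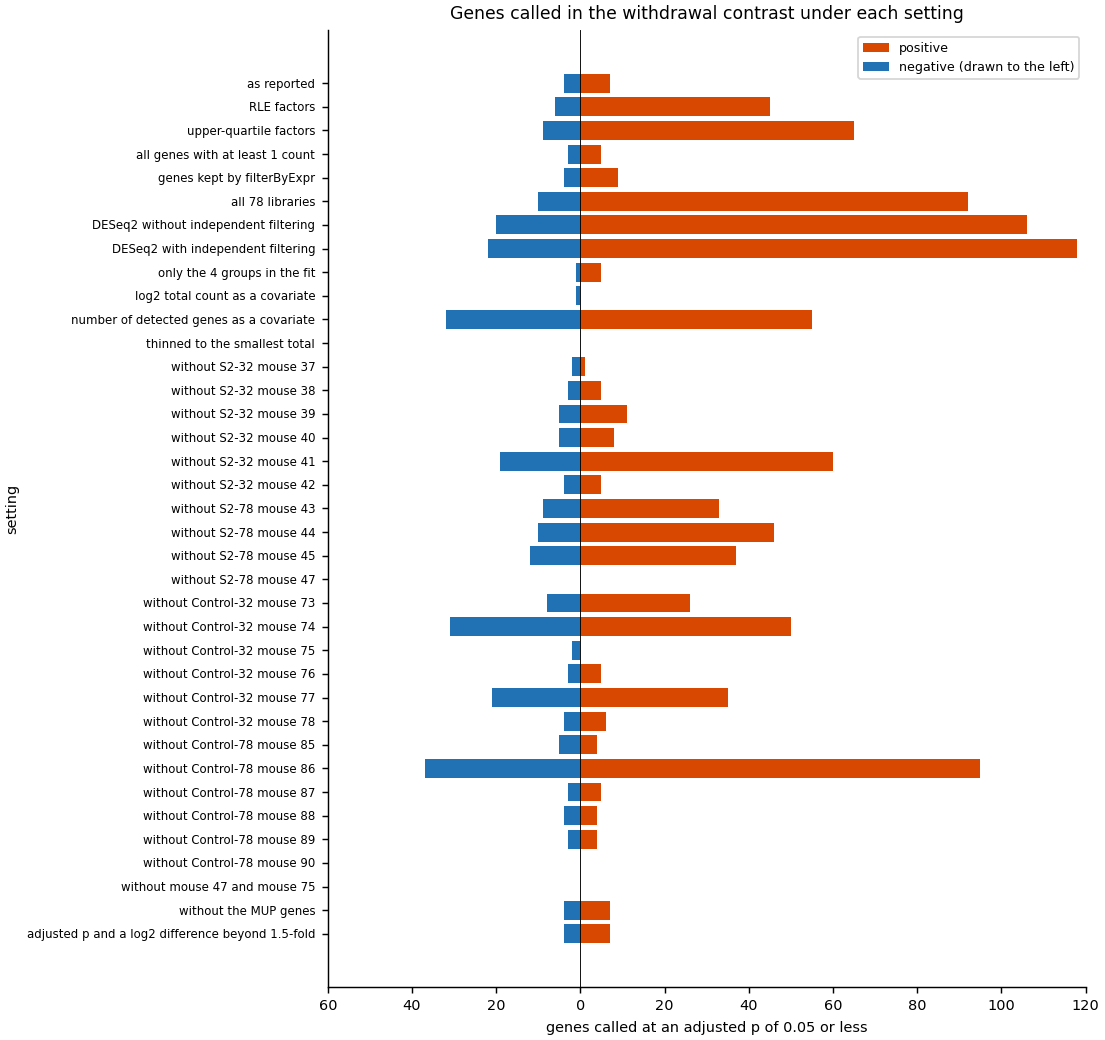
Number of genes with an adjusted p of 0.05 or less in the withdrawal difference under each setting, as bars that start at 0. The count is 11 as reported, 0 without mouse 47 or mouse 90, and 132 without mouse 86.

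DNAJB1, an HSP40 co-chaperone of the heat shock response, was among the 4 negative genes. It read 10.6, 18.4 and 29.8 CPM (lowest, median, highest) in Control-32, 12.1, 20.3 and 45.3 in S2-32, and 11.7, 58.04 and 513 in Control-78. In S2-78 mice 43, 44, 45 and 47 DNAJB1 read 6.43, 13.4, 9.35 and 6.89 CPM. S2-78 mice 43, 45 and 47 were below every Control-78 mouse and mouse 44 was within their range, and Control-78 mice 87 (190 CPM) and 90 (513 CPM) were the high ones. Its withdrawal difference was -4.19 (SE 0.87, adjusted p = 0.0164), from 0.24 at 32 weeks (adjusted p = 0.793) and -3.95 at 78 weeks (adjusted p = 0.000682). Without mouse 90 the difference was -3.10 with an adjusted p of 0.06. Between 32 and 78 weeks DNAJB1 rose in the controls themselves by 2.85 (adjusted p = 0.0108).

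INSIG1, an endoplasmic reticulum protein that holds back sterol synthesis and whose own transcription follows SREBP, also had a negative withdrawal difference. Its lowest, median and highest levels were 120, 259 and 335 CPM in Control-32, 175, 649 and 724 in S2-32, and 422, 808 and 1258 in Control-78. In S2-78 mice 43, 44, 45 and 47 it was 420, 278, 461 and 158 CPM. Every Control-78 mouse was above every Control-32 mouse, while S2-32 and S2-78 overlapped, so the rise in controls is part of the difference. Of the S2-32 mice only mouse 41 was within the Control-32 range, and S2-78 mice 43, 44 and 47 were below every Control-78 mouse. It was higher than in controls at 32 weeks by 1.23 (adjusted p = 0.0212) and -1.31 at 78 weeks (adjusted p = 0.0831), a withdrawal difference of -2.54 (SE 0.55, adjusted p = 0.0164). Without mouse 47 this was -2.28 with an adjusted p of 0.0824.

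CDCA4, a regulator of cell division, was nearly absent from younger controls. It was at 0 in 4 of 6 Control-32 mice, with 6 counts in the whole group and a highest level of 1.44 CPM, and ran from 3.94 to 11.7 CPM (median 5.70) in S2-32. Control-78 ran from 1.67 to 15.3 CPM (median 5.62), and S2-78 mice 43, 44, 45 and 47 read 3.57, 5.10, 1.42 and 4.31 CPM. Thus the S2-32 mice were all above Control-32, while S2-78 and Control-78 overlapped. Every Control-78 mouse was also above every Control-32 mouse, and S2-32 and S2-78 overlapped. The withdrawal difference was -4.39 (SE 1.02, adjusted p = 0.0248), and its S2-32 change was 3.39 (adjusted p = 0.00335). CDCA4 was below the CPM minimum of 10 used to choose named genes, so it was chosen after its values were seen.

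YTHDF1, a reader of N6-methyladenosine in messenger RNA, differed from controls only at the later age. Its lowest, median and highest levels were 64.9, 149 and 219 CPM in Control-32, 119.8, 140.4 and 182 in S2-32, and 143, 295 and 405 in Control-78. YTHDF1 in S2-78 mice 43, 44, 45 and 47 was 153, 108, 114 and 68.1 CPM. S2-78 mice 44, 45 and 47 were below all Control-78 mice and mouse 43 was within their range. The withdrawal difference was -1.41 (SE 0.35, adjusted p = 0.0404), after 0.05 at 32 weeks (adjusted p = 0.908) and -1.36 at 78 weeks (adjusted p = 0.00229). In controls YTHDF1 rose by 1.02 between the ages (adjusted p = 0.0149).

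Of the positive genes, TNIP1 and A130071D04RIK were high in S2-78 as a group. TNIP1, a ubiquitin-binding protein that restrains NF-kappa-B signalling, had 8.85, 14.6 and 39.3 CPM (lowest, median, highest) in Control-32, 4.39, 10.1 and 13.6 in S2-32, and 5.84, 7.93 and 11.3 in Control-78. In S2-78 mice 43, 44, 45 and 47 TNIP1 was 23.6, 19.7, 103 and 40.5 CPM. All 4 S2-78 mice were above every Control-78 and every S2-32 mouse, with mouse 45 highest. The withdrawal difference was 3.59 (SE 0.85, adjusted p = 0.0254) and the change at 78 weeks was 2.53 (adjusted p = 0.0176). Without mouse 75, the highest of Control-32 for TNIP1, the withdrawal difference had an adjusted p of 0.0914.

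A130071D04RIK is a transcript whose biotype is still marked as to be experimentally established in the annotation. It had 8.17, 20.3 and 54.9 CPM (lowest, median, highest) in Control-32, 7.88, 10.8 and 34.6 in S2-32, and 4.88, 11.7 and 20.2 in Control-78. The S2-78 mice 43, 44, 45 and 47 had 88.6, 56.1, 40.5 and 20.7 CPM. The 4 S2-78 mice were above every Control-78 mouse, mouse 47 only just. Its withdrawal difference was 2.77 (SE 0.67, adjusted p = 0.0328) and its change at 78 weeks 2.04 (adjusted p = 0.0161). Mouse 75 was again the highest of Control-32, and without it the withdrawal difference had an adjusted p of 0.135.

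CRIM1, AXIN1 and BIRC3 were low at the end of exposure, and their changes at 78 weeks did not pass the test. CRIM1, a transmembrane protein that binds bone morphogenetic proteins, ran from 35.9 to 140.4 CPM in Control-32 (median 80.4) and from 6.56 to 22.11 in S2-32 (median 19.1). It ran from 26.8 to 109 CPM in Control-78 (median 43.3), and S2-78 mice 43, 44, 45 and 47 had 34.3, 25.5, 65.2 and 116 CPM. S2-32 did not overlap Control-32 for CRIM1, while S2-78 mice lay within or near the Control-78 range. CRIM1 had a withdrawal difference of 2.53 (SE 0.58, adjusted p = 0.0248), with -2.28 at 32 weeks (adjusted p = 0.000610) and 0.25 at 78 weeks (adjusted p = 0.841).

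AXIN1, the scaffold of the beta-catenin destruction complex, ran from 195 to 1318 CPM in Control-32 (median 742) and from 108 to 137 in S2-32 (median 117), again with no overlap. Control-78 ran from 109 to 1145 CPM (median 261), and S2-78 mice 43, 44, 45 and 47 had 168, 141, 217 and 1273 CPM. Mouse 47 was above every Control-78 mouse and the other 3 S2-78 mice were below the Control-78 median. The withdrawal difference was 2.81 (SE 0.72, adjusted p = 0.0450), with -2.63 at 32 weeks (adjusted p = 0.00122). Without mouse 47 it was 1.48 with an adjusted p of 0.492.

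BIRC3, an inhibitor of apoptosis that NF-kappa-B induces, had 57.1, 203 and 366 CPM (lowest, median, highest) in Control-32, 49.4, 67 and 84.5 in S2-32, and 81.1, 107 and 255 in Control-78. BIRC3 in S2-78 mice 43, 44, 45 and 47 was 95.1, 56.7, 435 and 505 CPM. S2-78 was split, with mice 45 and 47 above all controls of that age and mouse 44 below them. The withdrawal difference was 2.75 (SE 0.70, adjusted p = 0.0450), and the change at 32 weeks -1.64 (adjusted p = 0.0202). Without mouse 47 the adjusted p was 0.299 for BIRC3 and 0.223 for CRIM1.

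NAP1L3, a nucleosome assembly protein, ran from 0 to 23.03 CPM in Control-32 (median 10.7) and from 0.586 to 3.94 in S2-32 (median 1.85). It ran from 0.915 to 4.17 CPM in Control-78 (median 1.37), while S2-78 mice 43, 44, 45 and 47 had 11.4, 0, 8.501 and 24.1 CPM. Mice 43, 45 and 47 were above all Control-78 mice and mouse 44 had none. The withdrawal difference was 4.89 (SE 1.14, adjusted p = 0.0248).

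CELA3B, a pancreatic elastase, rested on 1 mouse. It had 0, 2.55, 2.55 and 4667 CPM in S2-78 mice 43, 44, 45 and 47, and at most 33.9 CPM in Control-32, 0.389 in S2-32 and 3.94 in Control-78. Only mouse 47 was high, and the whole S2-32 group had 1 count, so its fitted difference of 16.26 (adjusted p = 0.0164) is no bound on a fold. Without mouse 47 the adjusted p was 0.530.

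**Figure D3:**
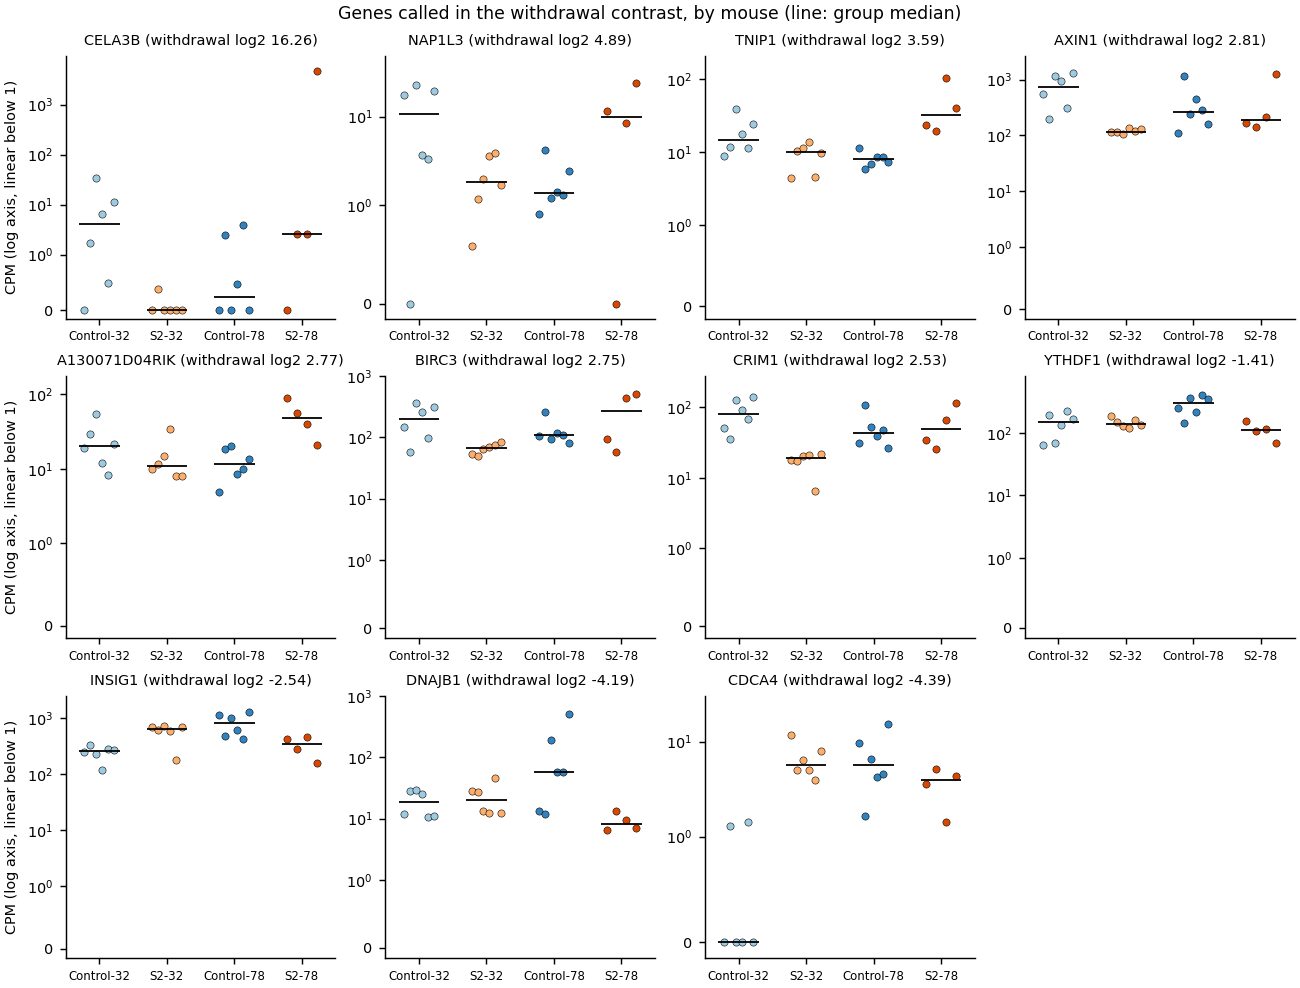
Levels of the 11 genes called in the withdrawal difference, in CPM on a log scale, 1 point per mouse in Control-32, S2-32, Control-78 and S2-78. TNIP1 and A130071D04RIK are higher in all 4 S2-78 mice than in any Control-78 mouse, and CELA3B is high in mouse 47 alone at 4667 CPM.

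In the GENCODE annotation of GRCm38, DNAJB1 is at chr8:83608193-83612653 on the plus strand, INSIG1 at chr5:28071363-28078662 (plus), CDCA4 at chr12:112820229-112829423 (minus) and YTHDF1 at chr2:180904377-180920949 (minus). TNIP1 is at chr11:54910785-54962917 (minus), A130071D04RIK at chr1:138161820-138167683 (minus), AXIN1 at chr17:26138688-26195811 (plus) and CRIM1 at chr17:78200248-78376592 (plus). BIRC3 is at chr9:7848699-7873186 (minus), NAP1L3 at chrX:122394565-122397401 (minus) and CELA3B at chr4:137420999-137430540 (minus).

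A further 14 genes were named by the smallest unadjusted p although they did not pass. They were SYTL2 (2.82, adjusted p = 0.0525), GBP10 (5.47, 0.0534), HERPUD1 (-2.40, 0.0591), SLC6A8 (3.71, 0.0601), ZGRF1 (3.95, 0.0601), CYP4A10 (8.44, 0.0601), STMN3 (7.91, 0.0601), PNP2 (-1.50, 0.0601), GTF2B (3.42, 0.0601), TXLNA (-2.09, 0.0648), PSMD4 (-2.17, 0.0662), FOSL1 (5.83, 0.0662), CEL (11.05, 0.0662) and RRM1 (-1.32, 0.0662). CEL, a pancreatic lipase, was again highest in mouse 47, at 6615 CPM. Leaving out 1 library gave lowest differences of -0.59 for CEL, 2.05 for SLC6A8, 3.40 for GBP10, 5.78 for STMN3 and 3.90 for FOSL1. Without mouse 47 their adjusted p was highest, at 0.955, 0.508, 0.475, 0.401 and 0.475. CYP4A10 had its highest without Control-78 mouse 90 (0.120), and the other genes named here without mouse 47.

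Genes of the unfolded protein response, which raises chaperones and degradation factors when proteins misfold in the endoplasmic reticulum, had a negative median. Of 21 tested members 4 had a positive withdrawal difference and none was called, and the median was -0.93 beside 0.01 over all genes (-0.73 with RLE and -0.69 with upper-quartile factors). The medians were -0.31 at 32 weeks (-0.55 with upper-quartile factors) and -0.81 at 78 weeks (-0.51 with RLE and -0.52 with upper-quartile factors), when 2 of 21 were called lower, beside 18 of all 2205 genes (0.816%). HERPUD1, which takes part in degradation of misfolded proteins, ran from 373 to 1465 CPM in Control-32 (median 951), 337 to 1954 in S2-32 (median 829.96) and 871 to 4203 in Control-78 (median 2995). For S2-78 mice 43, 44, 45 and 47 it was 924, 631, 419 and 356 CPM. Mice 44, 45 and 47 were below every Control-78 mouse and mouse 43 was just above the lowest one. HERPUD1 was lower at 78 weeks by a log2 change of -2.21 (adjusted p = 0.00959), and 0.19 at 32 weeks (adjusted p = 0.778).

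HSPA5, the main chaperone of the endoplasmic reticulum, was chosen after its values were seen. It ran from 122 to 1086 CPM in Control-78 (median 565), and S2-78 mice 43, 44, 45 and 47 read 131, 119.8, 189 and 230.1 CPM. All 4 S2-78 mice were below the Control-78 median, and mouse 44 was just below the lowest Control-78 mouse. Its change at 78 weeks was -1.73 (adjusted p = 0.0436), at 32 weeks -1.12 (adjusted p = 0.0644), and its withdrawal difference -0.61 (adjusted p = 0.574). The promoters of HERPUD1 and HSPA5 are shown because both genes were lower in S2-78 and both carry a sequence known to bind factors of this response. They run from 250 bases before to 50 after the start of the gene, on the plus strand of GRCm38.p6 in RefSeq, at chr8:94386179-94386478 and chr2:34771840-34772139, with the motif in capitals.
HERPUD1: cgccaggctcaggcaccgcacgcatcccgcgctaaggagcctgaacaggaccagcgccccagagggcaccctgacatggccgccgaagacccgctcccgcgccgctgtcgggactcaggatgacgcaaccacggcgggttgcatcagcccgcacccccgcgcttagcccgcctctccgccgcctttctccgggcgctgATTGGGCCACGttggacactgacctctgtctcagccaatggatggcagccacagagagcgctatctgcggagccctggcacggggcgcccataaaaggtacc
HSPA5: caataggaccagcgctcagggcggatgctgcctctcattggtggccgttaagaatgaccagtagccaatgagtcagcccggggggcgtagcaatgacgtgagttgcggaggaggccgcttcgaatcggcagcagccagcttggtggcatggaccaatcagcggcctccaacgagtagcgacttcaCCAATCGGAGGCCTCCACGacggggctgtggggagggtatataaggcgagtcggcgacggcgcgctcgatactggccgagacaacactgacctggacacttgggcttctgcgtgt
The HERPUD1 promoter held 1 match to the ERSE-II letters ATTGGNCCACG and the HSPA5 promoter 1 match to the ERSE letters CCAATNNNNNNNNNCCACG, searched on both strands. The motifs share the letters CCACG. ERSE-II was in 12 of 32851 promoters of that length (0.0365%) and ERSE in 39 (0.119%). Both the genes and the motifs were chosen for known ties to this response, so the matches are not a result of these data. Of the 21 tested members of the list 17 had a promoter in the table, and 7 of these held either motif: CALR, CANX, CRELD2, HERPUD1, HSP90B1, HSPA5 and PDIA6. CALR went the other way from HERPUD1, with a positive withdrawal difference in all 35 alternative settings (0.42 to 2.81), passing in 3. It was below the median of same-age controls in all 6 S2-32 mice and in 3 of 4 S2-78 mice. CANX, CRELD2, HSP90B1 and PDIA6 are not given by value, and a role of the motifs in these levels was not tested.

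Some enzymes of pyruvate dehydrogenase and the tricarboxylic acid cycle were called at the end of exposure and none was called later. At 32 weeks 4 of 9 tested members were higher, beside 76 of all 2205 genes (3.45%), among them IDH3A (1.17, adjusted p = 0.00890), IDH3G (0.93, 0.0108) and CS (0.93, 0.0356), and PDHX, a subunit of the pyruvate dehydrogenase complex, was lower (-0.85, 0.0489), beside 159 of all genes (7.21%). CS and PDHX were named after their values were seen. The list's median was 0.93 at 32 weeks, 0.12 at 78 weeks and -0.81 for the withdrawal difference, with 2 of 9 positive and none called. The 78-week median was 0.31 with RLE and 0.26 with upper-quartile factors. Without mouse 47 the median was 0.38 at 78 weeks and -0.54 for the withdrawal difference, and the latter was -0.54 with upper-quartile factors and -0.33 without mice 47 and 75. The 20 tested genes of the respiratory chain and ATP synthase had a median of -0.06, which was 0.18 with RLE, 0.22 with upper-quartile factors and 0.17 without mouse 47. Glycolysis, gluconeogenesis and glycogen genes (16) had a median of 0.34, which was 0.65 with RLE, 0.69 with upper-quartile factors, 0.22 without mouse 47 and -0.01 without mice 47 and 75.

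Sterol and fatty acid synthesis was described by 21 tested genes, 6 with a positive withdrawal difference and 1 called, INSIG1, beside 11 of all 2205 genes (0.499%). Their median was -0.82, which was -0.53 with RLE and -0.37 with upper-quartile factors. It was -0.42 at 78 weeks, -0.21 with RLE, and 0.19 at 32 weeks, the last being 0.07 with RLE, -0.05 with upper-quartile factors and 0.45 without mice 47 and 75.

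Secreted liver proteins had negative medians with no gene called. Serpins, the protease inhibitors, had 10 tested members, none with a positive difference, and a median of -1.93. Coagulation and fibrinolysis genes had a median of -1.16 with 5 of 17 positive, and acute phase genes a median of -0.92 with 6 of 22 positive, which was -0.59 with RLE and -0.49 with upper-quartile factors. The acute phase median was the same, -0.92, with its 2 genes of 3 or fewer counts in a group set to a floor of 3 counts. Complement genes (17) had a median of -0.16, which was 0.16 with RLE, 0.23 with upper-quartile factors and -0.64 without mouse 47. FGB, the fibrinogen beta chain, ran from 198 to 1495 CPM in Control-32 (median 471), 160.1 to 3212 in S2-32 (median 1646) and 399.6 to 3377 in Control-78 (median 2095). S2-78 mice 43, 44, 45 and 47 had 626, 630.01, 234 and 222 CPM. All 4 S2-78 mice were below the Control-78 median, and mice 45 and 47 were below every Control-78 mouse. The withdrawal difference of FGB was -3.66 (SE 1.06, adjusted p = 0.0662).

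Hepatocyte markers also had a negative median. Of 11 tested markers 2 had a positive withdrawal difference and none was called, and the median was -1.13, with 0.75 at 32 weeks and -0.31 at 78 weeks. Without mouse 47 it was -0.78, and -0.16 at 78 weeks, when RLE factors gave -0.10 and upper-quartile factors -0.16. Their summed level was 39950, 51659 and 71449 CPM (lowest, median, highest) in Control-32, 43528, 87824 and 112103 in S2-32, and 51822, 69037 and 79945 in Control-78. The sums of S2-78 mice 43, 44, 45 and 47 were 68292, 78219, 39532 and 53020 CPM. Mouse 45 was below every Control-78 mouse and the other 3 were within their range. In whole liver fewer cells of a type and less RNA per cell cannot be told apart, and the part of the hepatocyte share in the secreted-protein medians was not tested.

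Markers of immune cells had positive medians. Of 11 tested macrophage and Kupffer cell markers 9 were positive (median 1.40), of 7 tested lymphocyte markers 7 (median 1.91) and of 3 neutrophil markers 2 (median 1.23), and none was called. The macrophage median was 0.88 without mice 47 and 75. Leaving out 1 library gave lowest differences of 0.01 for CYBB, 0.78 for CCR2, 1.05 for CD48, 1.41 for CD79A and -0.14 for CORO1A. Their highest adjusted p came without S2-78 mouse 45, and that of MPEG1, TYROBP and IGLC2 without mouse 47. TYROBP and CORO1A were the most abundant macrophage and lymphocyte markers. The macrophage sum was 1437, 3546 and 5319 CPM (lowest, median, highest) in Control-32, 975, 1427 and 1902 in S2-32, and 1323, 2908 and 5299 in Control-78, and S2-78 mice 43, 44, 45 and 47 had 2106, 1811, 5826 and 4654 CPM. S2-78 overlapped Control-78, and 3 of 6 S2-32 mice were below every Control-32 mouse. TYROBP, an adaptor of myeloid receptors, was called lower at 32 weeks (-2.58, adjusted p = 0.00890), and its withdrawal difference of 2.35 did not pass (adjusted p = 0.161). CD68, a lysosomal protein of macrophages named after its values were seen, was called higher at 32 weeks (2.06, adjusted p = 0.0301), with 20.4 to 32.2 CPM in S2-32 and at most 12.9 CPM in Control-32. The macrophage median at 32 weeks was -0.11, and 0.16 without mice 47 and 75. The lymphocyte sum was 148, 77.1, 747 and 116 CPM in the 4 S2-78 mice, high in mouse 45 alone, and at most 153 CPM in the other groups. TNIP1 and BIRC3 were also high in mouse 45, and the part of the immune markers in their values was not tested.

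Of the other marker lists only that of pancreas held a called gene, CELA3B. Stellate cell and fibroblast markers (9 tested, COL1A1 the most abundant) had a median of -0.38 (-0.11 with RLE and -0.06 with upper-quartile factors), endothelial markers (9, NRP1) 0.27 (0.49 and 0.56), and cholangiocyte markers (4, SPP1) 1.27. The stellate median was 1.00 at 32 weeks and 0.04 at 78 weeks, the latter 0.22 with RLE, 0.19 with upper-quartile factors and 0.39 without mouse 47. At each age 2 of 9 were called higher, beside 3.45% and 0.816% of all genes, COL1A1 and COL3A1 at 32 weeks and COL1A1 and COL1A2 at 78 weeks. The stellate sum was 436 to 1148 CPM in S2-32 and 143 to 364 in Control-32, and 903, 689.9, 329 and 159 CPM in the S2-78 mice against 130 to 285 in Control-78. COL3A1, named after its values were seen, did not overlap controls at either age, and its change of 2.01 at 78 weeks did not pass (adjusted p = 0.066). Without mice 47 and 75 the endothelial median was 0.50 and the cholangiocyte median 0.77. Erythroid markers (5, HBA-A2) had -0.07, 0.19 with either RLE or upper-quartile factors, and -0.82 without mouse 47. Skeletal muscle markers (6, ACTA1) had a median of 1.69, with a sum of 647 CPM in S2-78 mouse 43 and at most 139 CPM elsewhere. Pancreas markers had a median of 8.59 with 8 of 9 positive, and the median was 2.48 without mouse 47 and 0.99 without mice 47 and 75. The pancreas median stayed at 8.59 with CELA3B set to a floor of 3 counts. AMY1, the most abundant of the list over all groups, was the negative one (-1.33, adjusted p = 0.347). It had 225, 361, 141 and 82.7 CPM in S2-78 mice 43, 44, 45 and 47, all below the Control-78 range of 370 to 652 CPM. The change at 78 weeks did not pass (adjusted p = 0.272). AMY1 made up most of the list's sum in mice 43, 44 and 45. Among the S2-78 mice it was lowest in mouse 47, where that sum was highest, so it did not follow the sum.

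**Figure D4:**
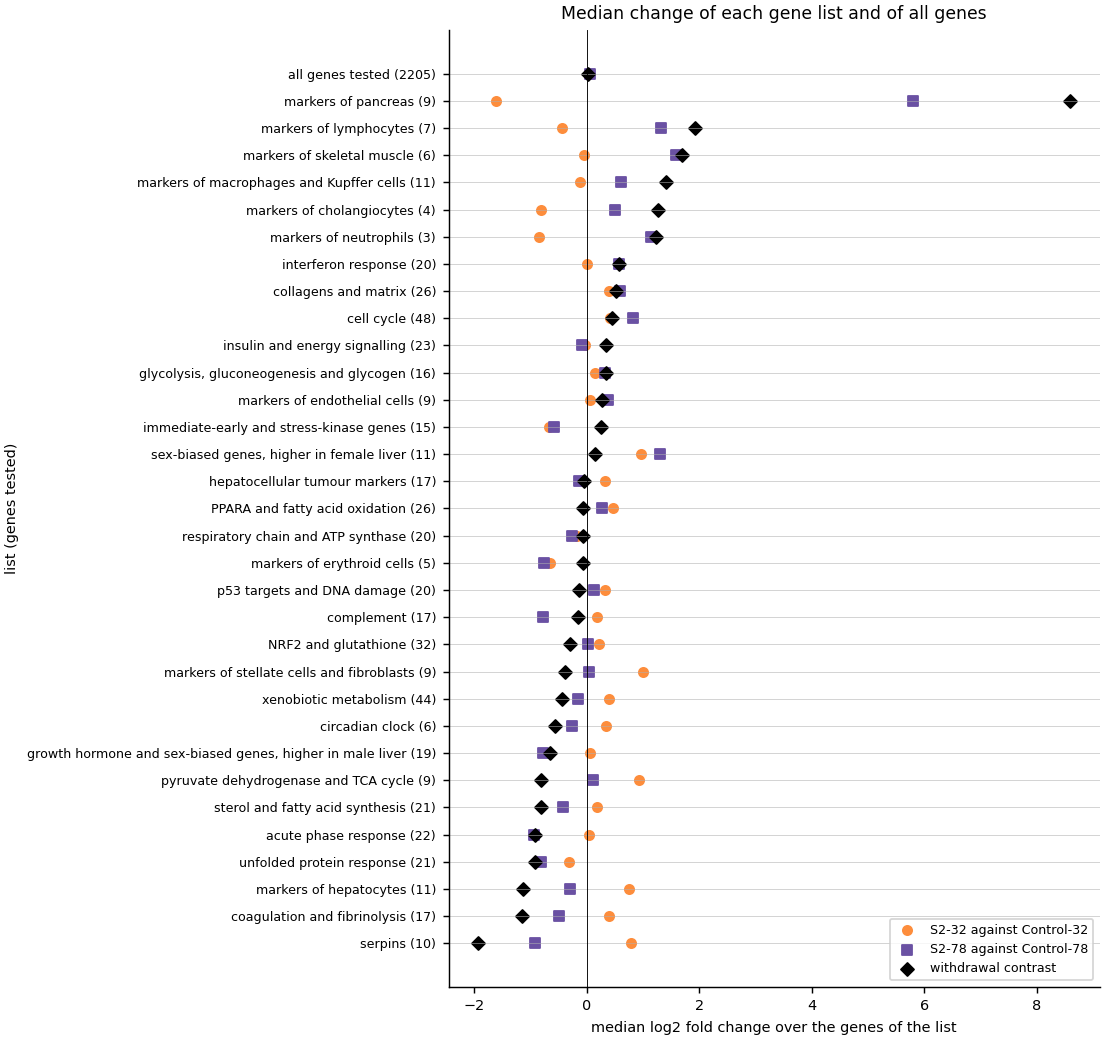
Median log2 withdrawal difference of each gene list and cell type marker list, with the number of genes tested. The line marks the median over all 2205 genes, 0.01. Serpins lie at -1.93 and lymphocyte markers at 1.91.

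CYP4A10 and CYP4A14, fatty acid omega-hydroxylases and standard targets of PPARA, split the S2-78 mice. CYP4A10 had 0, 2.87 and 1201 CPM (lowest, median, highest) in Control-32, 2.72, 1162 and 2751 in S2-32, and 0.604, 1.44 and 8.34 in Control-78, and 5506, 7776, 0 and 0 CPM in S2-78 mice 43, 44, 45 and 47. CYP4A14 had 7778, 10295, 0 and 0.862 CPM in the same 4 mice and at most 54.2 CPM in Control-78. Mice 43 and 44 were far above every Control-78 mouse for both genes, and mice 45 and 47 were at or near 0. The change at 78 weeks was 10.46 for CYP4A10 (adjusted p = 0.00229) and 8.998 for CYP4A14 (adjusted p = 0.0109). Their withdrawal differences of 8.44 (adjusted p = 0.0601) and 6.59 (adjusted p = 0.138) did not pass. The whole list of PPARA and fatty acid oxidation genes had 26 tested members and a median of -0.06, which was 0.18 with RLE, 0.17 with upper-quartile factors and -0.10 without mouse 47.

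The remaining lists held no gene called in the withdrawal difference. Genes of NRF2 and glutathione (32 tested) had a median of -0.31 and those of xenobiotic metabolism (44) -0.44, which were -0.12 and -0.19 with RLE, -0.11 and -0.15 with upper-quartile factors, and -0.13 and -0.18 without mouse 47. Growth hormone and sex-biased genes higher in male liver (19) had -0.65, and -0.39 with RLE, -0.32 with upper-quartile factors and -0.29 without mice 47 and 75. Sex-biased genes higher in female liver (11) had 0.14, and 0.25 with RLE, 0.23 with upper-quartile factors and 0.45 without mouse 47. Without the major urinary protein genes their median was 0.05. Circadian clock genes (6) had -0.56 and collagens and matrix (26) 0.52, which were -0.28 and 0.75 with RLE and -0.20 and 0.82 with upper-quartile factors. Cell cycle genes (48) had 0.45, and 0.78 with RLE, 0.80 with upper-quartile factors and 0.69 without mouse 47. The interferon response (20) had 0.56, and 0.94 with RLE, 1.07 with upper-quartile factors and 0.12 without mice 47 and 75. Insulin and energy signalling genes (23) had 0.34, and 0.65 with RLE, 0.71 with upper-quartile factors and 0.12 without mouse 47. The median of p53 targets (20) was -0.14 and that of hepatocellular tumour markers (17) -0.05, both above 0 with RLE (0.17 and 0.23) and upper-quartile factors (0.25 and 0.31) and below 0 without mouse 47 (-0.36 and -0.09). The tumour marker median was 0.02 without the major urinary protein genes. Immediate-early and stress-kinase genes (15) had a median of 0.25, and 0.65 with RLE, 0.77 with upper-quartile factors and -1.07 without mouse 47. Their sum was 2525 and 6154 CPM in Control-78 mice 89 and 90, against 436 to 731 CPM in the other 4 Control-78 mice and 537 to 920.5 CPM in S2-78.

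The exposed mice were also compared with controls at each age. In S2-32 against Control-32, 235 genes passed an adjusted p of 0.05 and a fold change beyond 1.5 (10.7%), 76 higher (3.45%) and 159 lower (7.21%). In S2-78 against Control-78, 36 genes passed (1.63%), 18 higher (0.816%) and 18 lower (0.816%), with 72.1% higher among the 43 called with RLE factors and 72.5% among the 40 called with upper-quartile factors. DESeq2 called 393 and 97. The first count was 153 without S2-32 mouse 42, 121 without Control-32 mouse 75, 145 without Control-32 mouse 76, 123 without mouse 78 and 502 without mouse 74. The second was 22 without S2-78 mouse 43 or without Control-78 mouse 90.

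The changes at the end of exposure were smaller 46 weeks later, and the mice differed. The 76 genes called higher at 32 weeks had a median of 1.39 then and 0.30 at 78 weeks, when 53 of 76 (69.7%) were still higher, beside 0.06 and 1162 of 2205 over all genes. The 159 called lower went from -1.67 to -0.18, with 94 (59.1%) still lower, beside 1043 of 2205 (47.3%) over all genes. Their 78-week median was 0.09 with RLE and 0.06 with upper-quartile factors. Of the genes called lower with those factors, 85 of 194 and 108 of 232 were still lower. Taken by mouse, the higher genes had medians of 0.80, 0.81, 0.22 and -0.9964 in S2-78 mice 43, 44, 45 and 47 relative to Control-78, and the lower genes -1.08, -1.07, -0.10 and 0.89, beside -0.09, -0.01, 0.06 and -0.37 over all genes. Mice 43 and 44 kept the direction of exposure in both sets, mouse 45 was close to controls and mouse 47 had the opposite sign. Without mouse 47 the medians were 0.51 and -0.82, with 177 of the 191 genes then called lower still lower. The sets were chosen by their values at 32 weeks, so values nearer 0 at 78 weeks were built into the choice in part.

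**Figure D5:**
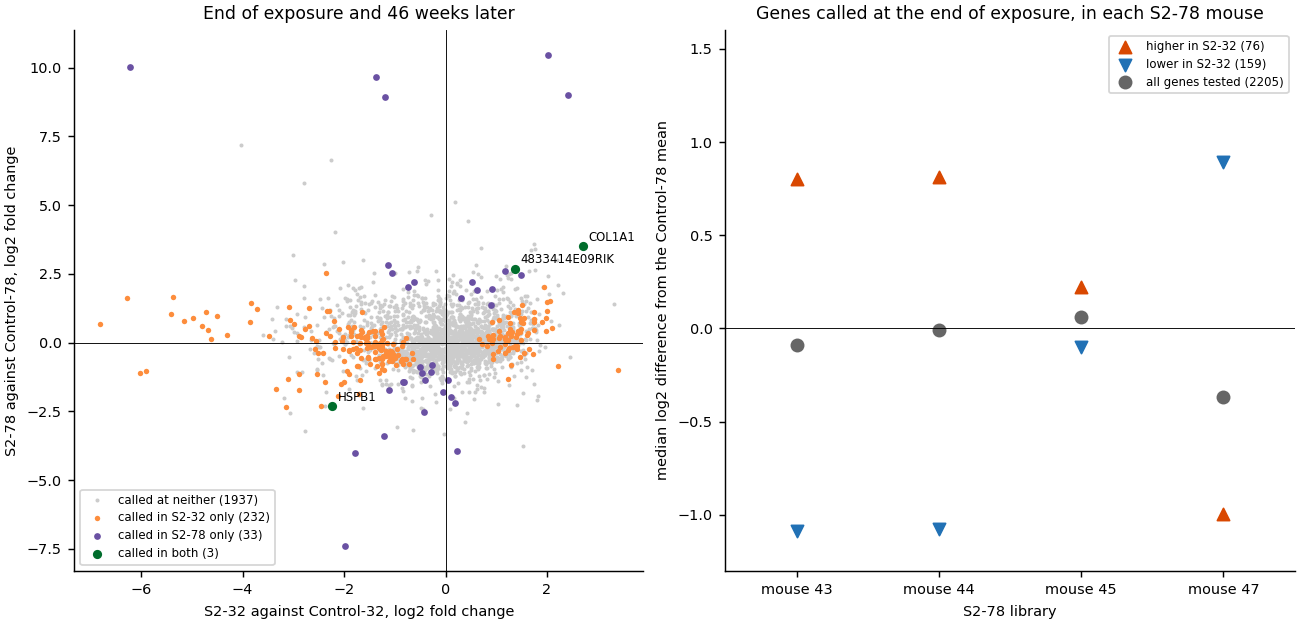
Left, log2 change in S2-32 against Control-32 (x axis) and in S2-78 against Control-78 (y axis) for all genes tested. Colours mark genes called at neither age, in S2-32 only, in S2-78 only or in both. Right, median log2 level relative to Control-78 of the genes called higher and lower at 32 weeks, for each S2-78 mouse, where mice 43 and 44 have 0.80 and 0.81 for the higher genes and mouse 47 has -0.9964.

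Both comparisons called 3 genes in common, COL1A1, HSPB1 and 4833414E09RIK, which is 1.28% of the 235 and 8.33% of the 36. Over all 2205 genes 10.7% were called at 32 weeks and 1.63% at 78 weeks, so the shared part of either list was no larger than these shares. All 3 had the same direction at both ages. The comparisons share no library. COL1A1, the main chain of fibrillar collagen, ran from 26.5 to 111 CPM in Control-32 (median 41.6), 185 to 628 in S2-32 (median 296) and 9.97 to 42.5 in Control-78 (median 23.7), with 539.7, 381, 142 and 55.1 CPM in S2-78 mice 43, 44, 45 and 47. No DCA-exposed mouse overlapped its controls at either age. The change was 2.72 at 32 weeks (adjusted p = 0.00335) and 3.50 at 78 weeks (adjusted p = 0.000682), and the withdrawal difference 0.78 (adjusted p = 0.602). The third, 4833414E09RIK, named after its values were seen, changed by 1.38 (adjusted p = 0.0369) and 2.68 (adjusted p = 0.000682), and had 392, 162, 29.8 and 31.9 CPM in S2-78 against 14.2 to 36.9 CPM in Control-78.

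HSPB1, a small heat shock protein that keeps unfolded proteins soluble, was low at both ages and was also chosen after its values were seen. It had 231, 334 and 631 CPM (lowest, median, highest) in Control-32, 22.11, 45.7 and 192 in S2-32, and 220.2, 288 and 639 in Control-78. HSPB1 in S2-78 mice 43, 44, 45 and 47 was 80.1, 26.8, 52.1 and 129 CPM. No S2 mouse of either age reached the lowest control of that age. The change was -2.24 at 32 weeks (adjusted p = 0.00222) and -2.31 at 78 weeks (adjusted p = 0.00986), with a withdrawal difference of -0.07 (adjusted p = 0.960). Its promoter, chr5:135887669-135887968 on the plus strand of GRCm38.p6 in RefSeq, is shown because HSPB1 and DNAJB1 are both heat shock genes that were low in S2-78.
HSPB1: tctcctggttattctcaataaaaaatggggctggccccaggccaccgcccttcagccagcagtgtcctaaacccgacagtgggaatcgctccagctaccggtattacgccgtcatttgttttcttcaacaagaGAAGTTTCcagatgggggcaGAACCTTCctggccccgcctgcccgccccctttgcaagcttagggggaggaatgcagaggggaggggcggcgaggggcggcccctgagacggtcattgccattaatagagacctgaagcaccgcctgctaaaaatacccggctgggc
The capitals mark 2 matches to the heat shock element letters GAANNTTC, searched on both strands, which were in 2582 of 32851 promoters (7.86%).

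Further genes called in S2-78 against Control-78 are given by their values. BAG3, FKBP4, CHAC1, ALDH2 and CYP3A11 were chosen after their values were seen. BAG3, a co-chaperone induced by heat shock, had 61.7, 262 and 413 CPM (lowest, median, highest) in Control-78 and 41.5, 85.4, 101 and 37.1 CPM in the 4 S2-78 mice, a change of -1.80 (adjusted p = 0.0182). Mice 43 and 47 were below all Control-78 mice, and mice 44 and 45 were within their range. FKBP4, a co-chaperone of steroid receptors, was lower without overlap, with a change of -1.12 (adjusted p = 0.0456). CHAC1, a target of the unfolded protein response that degrades glutathione, had no count in any S2-78 mouse and 0.834 to 16.8 CPM in Control-78.

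FOS, SERPINE2 and TRIB1 were also called lower in S2-78, by different patterns. FOS, an immediate-early transcription factor, ran from 9.45 to 1126 CPM in Control-78 (median 56.9) and had 8.58, 0.637, 22.7 and 61.2 CPM in the S2-78 mice (-4.01, adjusted p = 0.0342). Control-78 mice 89 (1126 CPM) and 90 (966 CPM) were far above the other 4 controls (9.45 to 60.7 CPM). SERPINE2 ran from 28.4 to 76.7 CPM in Control-78 (median 51.6) and had 3.57, 3.82, 10.8 and 0.862 CPM in S2-78, with no overlap (-3.41, adjusted p = 0.00986). TRIB1, a pseudokinase that marks C/EBP proteins for degradation, had 19277 CPM in Control-78 mouse 90 and 457 to 1757 CPM in the other 5, against 522 to 934 CPM in S2-78 (-2.52, adjusted p = 0.00605). For FOS the S2-78 mice 43 and 44 were below all controls, and for TRIB1 only Control-78 mouse 90 was far above the other mice of either group. GADD45A was likewise far higher in mouse 90, at 1581 CPM, than in the other 5 Control-78 mice (65.4 to 220 CPM). The S2-78 mice had 61.5, 66.2, 131 and 112 CPM, 2 above and 2 below the Control-78 median, so its change of -1.97 (adjusted p = 0.0436) was not one of the group as a whole. Among enzymes ALDH2, the mitochondrial aldehyde dehydrogenase, fell by 1.36 (adjusted p = 0.00273) with no overlap, from 7666 to 10693 CPM in Control-78 to 2459 to 4469 CPM in S2-78. CYP3A11, a drug-metabolising cytochrome P450, rose by 1.94 (adjusted p = 0.0191), with 1599.8, 1938, 1555 and 348 CPM in the S2-78 mice against 173 to 517 CPM.

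Of the genes that the study itself names for expression, 4 of 12 were called at 32 weeks, 1 of 12 at 78 weeks and none in the withdrawal difference, beside 10.7%, 1.63% and 0.499% of all 2205 genes. COL1A1 was called at both ages. IRS1, the insulin receptor substrate, was lower at 32 weeks (-1.69, adjusted p = 0.00214) and had 42.9, 57.97, 66.9 and 33.6 CPM in S2-78 against 71.6 to 177 CPM in Control-78. These ranges did not overlap, although the change of -1.35 did not pass (adjusted p = 0.0535). The complement gene C9 was lower at 32 weeks (-2.46, adjusted p = 0.0115) and -2.30 at 78 weeks (adjusted p = 0.104). EBP, a sterol isomerase, was lower at 32 weeks (-2.00, adjusted p = 0.00970) and -1.43 at 78 weeks (adjusted p = 0.208). SDPR, CTNND1, COL4A1, CEBPB, SERPINA3N, SERPINA3K, SERPIND1 and HES1 passed at neither age in edgeR. This differs from the study, which used DESeq2 and reported SDPR as changed at every timepoint. It also reported COL4A1 and CEBPB, like COL1A1, as altered in S1 and S2 samples. For SDPR all 6 S2-32 and all 4 S2-78 mice were above the median of their same-age controls, with overlapping ranges, so not passing here does not show that SDPR was unchanged. The study chose these genes on these samples, so their direction is not independent evidence.

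Age alone and time within S2 mice gave short lists as well. Control-78 against Control-32 called 17 genes (0.771%), 14 higher and 3 lower, and S2-78 against S2-32 called 16 (0.726%), 15 higher and 1 lower. DESeq2 called 50 and 67. RRM1, the large subunit of ribonucleotide reductase, ran from 74.2 to 168 CPM in S2-32 (median 98.1) and from 25.7 to 58.8 in Control-32 (median 34.4). S2-78 mice 43, 44, 45 and 47 had 72.2, 35.04, 54.98 and 24.1 CPM, against 30.03 to 50.8 CPM in Control-78 (median 33.5). Every S2-32 mouse was above every Control-32 and S2-78 mouse. RRM1 was higher at 32 weeks by 1.61 (adjusted p = 6.77e-05) and fell by 1.30 from S2-32 to S2-78 (adjusted p = 0.0159), and its withdrawal difference of -1.32 did not pass (adjusted p = 0.0662).

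Without S2-78 mouse 47 no gene was called in S2-78 against S2-32, with 138 at an unadjusted p under 0.05. That count was 3, 3, 1, 5, 5 and 2 without S2-32 mice 37, 38, 39, 40, 41 and 42, and 56, 69 and 8 without S2-78 mice 43, 44 and 45. The count for age in controls was 3, 33, 10, 42 and 6 without Control-32 mice 73, 74, 75, 77 and 78, and 51, 10 and 0 without Control-78 mice 86, 89 and 90.

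Withdrawal after 32 weeks was compared with withdrawal after other exposures by a test of the difference itself. Withdrawal after 57 weeks used S3-57 (5 of 6 mice kept) and Control-57 (6 mice) at 61 weeks of age. At 82 weeks of age it used S3-78 (4 of 6 mice kept) and Control-78. The DCA dose was again 3.5 g/L. Against withdrawal after 57 weeks of DCA, with 21 weeks on water, edgeR called no gene (0%), with 98 at an unadjusted p under 0.05, and DESeq2 also called none. The withdrawal after 57 weeks by itself called none (0%), with 162 at that p. In the test of withdrawal after 32 weeks against withdrawal after 57 weeks, 1 gene was called without S2-78 mouse 43 or without Control-32 mouse 74. Withdrawal after 10 weeks of DCA, with 68 weeks on water, itself called 93 genes (4.22%). Against it 5 genes were called (0.227%): RRM1, COL1A1 and IGFBP3 with a lower and ENPP6 and ORM3 with a higher difference after 32 weeks. This count was 9 without S2-78 mouse 45, 3 without mouse 47 and 29 without Control-32 mouse 74. It was 10 without Control-78 mouse 86, and DESeq2 called 35. Control-78 cancels from the differences between withdrawals, so mouse 86 could move the count only through the scaling and shared spread of the fit. These 5 genes were named after their values were seen.

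Among RRM1, COL1A1 and IGFBP3, the genes with more than 3 counts in every group, COL1A1 differed most between the exposures. The S1 mice drank 3.5 g/L DCA for 10 weeks and were sampled at 14 (S1-10) and 82 weeks of age (S1-78), 6 mice each. Control-10 mice were sampled at 14 weeks of age (4 of 6 mice kept). COL1A1 in S1 mice was 19.3 to 60.7 CPM at 10 weeks (median 42.5) and 63.8 to 970.4 CPM at 78 weeks (median 241). In Control-10 it was 101 to 224 CPM (median 197). COL1A1 was thus below controls at the end of the short exposure and above them later, while after 32 weeks it was above them both times. The difference between the withdrawals was -5.10 (adjusted p = 0.00804). For IGFBP3, which binds insulin-like growth factors, it was -2.66 (adjusted p = 0.0171), and for RRM1 -2.64 (adjusted p = 0.000855). IGFBP3 ran from 127 to 222 CPM in S1-10 (median 174) and from 206 to 1135 in S1-78 (median 480). In Control-10 it ran from 351 to 1597 CPM (median 393), highest in mouse 68. No Control-10 mouse was left out in turn, so the part of mouse 68 was not tested. ENPP6 had no count in Control-10 and ORM3 had 2 counts in S2-32, so their fitted values of 10.88 (adjusted p = 0.000855) and 8.10 (adjusted p = 0.0295) are no bound on a fold.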

How the data were processed

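TempO-Seq counts of liver were read from 78 libraries. The authors deposited a raw count table (Bowtie and Partek 10.0.22.0524, vendor probe matching, mm10), a signal table of their median ratio normalization with 10 libraries left out by a Spearman rule, and a filtered table with the lowest genes removed. Of the deposited tables, only the raw counts entered the tests, and the normalization and filtered tables chose 68 libraries and 2205 of 2755 genes.

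Counts of all 13 groups were fitted in edgeR 4.0.16 (R 4.3.3, limma 3.58.1) with TMM factors and quasi-likelihood tests, 2-sided, with Benjamini-Hochberg adjustment over 2205 genes. Calls needed an adjusted p of 0.05 or less, and in comparisons of a pair of groups also a fold change beyond 1.5. The pipeline was tested on simulated data. DESeq2 1.42.0, other scalings, filters, covariates, thinned counts and leaving out 1 library in turn were alternatives. Only the 22 libraries of S2-32, S2-78, Control-32 and Control-78 were left out in turn, not those of the other groups. The alternatives without mice 47 and 75 or without the 5 MUP genes were chosen after seeing the data. Figures used Python 3.11.15, pandas 2.3.3 and matplotlib 3.10.9.

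Named genes were the 12 largest withdrawal differences in each direction among called genes whose mean reached 10 CPM in any group, filled to 24 by the smallest unadjusted p, the 3 largest rises and falls called in S2-78, genes the study names, and up to 4 members of each list by unadjusted p. The members and lists were chosen with earlier results of these data known. Symbols were matched to GENCODE M21 for 2114 of 2205 genes, and 200 of 205 named genes. The depth of 721372 to 4285848 counts leaves genes of a few CPM imprecise.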

Additional observations from a re-analysis of the deposited data

Results flagged for a closer look

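In groups of 4 to 6 mice, 37 of 212 checks had a highest or lowest mouse beyond Dixon's 95% critical value, where chance flags about 1 in 20 groups (10.6 here). Most named the same few mice. S2-78 mouse 47 was high for CELA3B (4667 CPM), CEL (6615), AXIN1 (1273), GBP10 (171) and SLC6A8 (948) and in the sum of pancreas markers (14728 CPM), and low in Spearman's rho with the median profile (0.782). Control-78 mouse 86 was high for AXIN1 (1145 CPM), BIRC3 (255), CRIM1 (109), GBP10 (93.4), CYP4A10 (8.34) and STMN3 (21.7), and low for PNP2 (53.4) and in rho (0.902).

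S2-32 mouse 41 was high for FOSL1 (7.22 CPM), CEL (11.2), FOS (24.9), SERPINE2 (36.8) and COL1A1 (628), and low for CRIM1 (6.56), INSIG1 (175) and SERPINA3N (11.2), with a rho of 0.898. Control-78 mouse 90 was high for DNAJB1 (513 CPM) and in the sum of cholangiocyte markers (415 CPM). S2-32 mouse 38 was high in the sums of erythroid (4898 CPM) and muscle markers (139 CPM), and mouse 40 for A130071D04RIK (34.6 CPM). In Control-32, mouse 75 was high for CELA3B (33.9 CPM), mouse 74 for TXLNA (209.8) and COL1A1 (111) and mouse 73 for CTNND1 (2594). In S2-78, mouse 45 was high in the sum of lymphocyte markers (747 CPM) and mouse 43 in that of muscle markers (647 CPM).

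Of the 37 checks, 2 rest on few counts, in groups where the other 5 mice were at 0. They are CELA3B in S2-32 mouse 38 (1 count, 0.389 CPM) and STMN3 in S2-32 mouse 41 (4 counts, 2.63 CPM), and neither is evidence that the mouse stood apart.

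A difference between the ages in the effect of exposure was tested and called for 11 genes: DNAJB1 (-4.19), CELA3B (16.26), INSIG1 (-2.54), CRIM1 (2.53), CDCA4 (-4.39), NAP1L3 (4.89), TNIP1 (3.59), A130071D04RIK (2.77), YTHDF1 (-1.41), AXIN1 (2.81) and BIRC3 (2.75), on the log2 scale. The difference between withdrawal after 32 and after 10 weeks was tested and called for RRM1 (-2.64), ENPP6 (10.88), COL1A1 (-5.10), IGFBP3 (-2.66) and ORM3 (8.10).

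The S2-78 libraries left out of every comparison, mice 46 and 48, had some marker sums above the highest Control-78 mouse, in CPM of the total count. Macrophage markers were 3952 in mouse 48 (highest control 3494), lymphocyte markers 132 and 184 in mice 46 and 48 (126), neutrophil markers 276 and 219 (85.3), and muscle markers 248 in mouse 48 (97.8). The lymphocyte sum of mouse 46 rested on 52 counts. Hepatocyte markers were 50428 and 21595 in mice 46 and 48 (highest control 74392), and the remaining marker lists were above the controls in neither. Both libraries stood apart, with totals of 394328 and 539248 counts and a rho of 0.747 and 0.563. The major urinary proteins took 18.1% and 53.9% of their counts. The differences in marker sums were not tested.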

How the results depend on the processing

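No paired analysis was possible because mouse numbers are unique to each group. The number of genes called in the withdrawal difference was 11 as reported and was between 8 and 16 with all genes of at least 1 count, with the genes kept by filterByExpr, with a fold criterion added and without the MUP genes. It was 51 with RLE and 74 with upper-quartile factors, 102 with all 78 libraries, 126 with DESeq2 and 140 with its independent filtering. It was 6 with only the 4 groups in the fit, 1 with log2 total count and 87 with detected genes as a covariate, 0 with counts thinned to the smallest total and 0 without mice 47 and 75. Leaving out 1 library gave 0 to 132. Fewer mice or counts enter some of these fits, and beyond that the cause was not tested.

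For S2-32 against Control-32 (235) the count was 68 with all libraries, 393 with DESeq2 (393 with filtering), 47 with 4 groups, 81 thinned and 156 without mice 47 and 75, and 121 to 502 with 1 library left out. For S2-78 against Control-78 (36) it was 14 with all libraries, 97 with DESeq2 with or without filtering, 11 with 4 groups, 119 with detected genes as a covariate and 12 thinned, and 22 to 49 with 1 left out. For S2-78 against S2-32 (16) it was 33 with RLE and 29 with upper-quartile factors, 111 with all libraries, 67 with DESeq2 either way, 7 with 4 groups, 1 with log2 total and 50 with detected genes as a covariate, 6 thinned and 0 without mice 47 and 75, and 0 to 69 with 1 left out. For Control-78 against Control-32 (17) it was 5 with upper-quartile factors, 0 with all libraries, 50 with DESeq2 either way, 0 with 4 groups, 2 with log2 total and 10 with detected genes as a covariate, 0 thinned and 8 without mice 47 and 75, and 0 to 51 with 1 left out. The cause was not tested.

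Against withdrawal after 57 weeks (0) the count was 1 with detected genes as a covariate. It was 0 to 1 with 1 of the 22 libraries left out, and no S3-57, S3-78 or Control-57 library was left out. Against withdrawal after 10 weeks (5) it was 9 with upper-quartile factors, 2 with all libraries, 35 with DESeq2 and 39 with its filtering. It was 11 with log2 total and 3 with detected genes as a covariate, 0 thinned and 2 without mice 47 and 75. With 1 of the same 22 libraries left out it was 3 to 29, and no S1-10, S1-78 or Control-10 library was left out. Among genes called at 32 weeks, the 78-week median with 1 library left out was 0.04 to 0.51 for the higher and -0.82 to 0.17 for the lower genes.

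None of the named genes whose withdrawal difference changed sign had passed the test. Without mice 47 and 75 the difference was -2.39 for CEL, -0.63 for CEBPB, -0.82 for C9, -0.95 for HBB-BS and -0.27 for PFKL. With log2 total count as a covariate it was -0.50 for CEBPB, 0.082 for SQSTM1, 0.054 for LAMA3, 0.014 for FN1, 0.15 for KDR, -0.46 for HBB-BS, -0.32 for HBA-A1 and 0.60 for NEB. With thinned counts it was 0.068 for LUM, 0.28 for VIM, -0.36 for KRT7, -0.26 for VWF and -2.29 for HBA-A1, and with all libraries 0.31 for SERPINE2 and 1.62 for CAMP. Leaving out 1 library gave -0.59 to 13.52 for CEL, -0.38 to 1.21 for CEBPB, -0.65 to 0.98 for C9, -0.12 to 1.43 for HLF, -1.52 to 0.11 for SPP1, -0.43 to 1.39 for KRT19, -0.14 to 2.28 for CORO1A, -5.005 to 0.22 for CAMP, -0.87 to 1.36 for HBB-BS and -3.16 to 2.35 for HBA-A1. The cause was not tested.

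The S2-78 group had 4 mice, sections were archived and fixed, and the panel covers part of each pathway. Pancreas transcripts were high in mouse 47, and their origin was not tested. With every library thinned to 540354 counts no call was left in the withdrawal difference.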
